A study of Mus musculus with 12 samples.

Results

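The collagen genes of cultured skeletal muscle fibroblasts were examined with and without a mineralocorticoid. The members were chosen by symbol: every gene named Col, a type number, the letter a and a chain number was taken, which gave 44 genes out of the 27319 in the table that holds the aldosterone- and vehicle-treated libraries. All 44 also stood among the 27631 genes of the table for aldosterone against spironolactone and the 27598 genes of the table for spironolactone against vehicle. By collagen class there were 11 fibrillar, 9 network-forming and 9 fibril-associated genes (FACIT, fibril-associated collagens with interrupted triple helices), 6 type VI microfibrillar genes, 4 transmembrane genes, 2 multiplexins and 3 others (Col7a1, Col26a1 and Col28a1). The fibroblasts came from the hindlimb skeletal muscle of C57BL/10 wild-type mice on postnatal day 3, were enriched by adherence rather than sorted, and were held in charcoal-stripped serum, which lacks endogenous steroids. They were treated for 48 hours with 1 µM aldosterone, 1 µM spironolactone (a mineralocorticoid receptor antagonist, given without aldosterone) or DMSO as vehicle, with 4 libraries in each group. Cells were pooled within each of 2 mice and spread over 2 plates per mouse and treatment, so p-values measure the spread among plates of 2 mice. Libraries are written as sample number and biological replicate number (1_1, 1_2, 2_1, 2_2), and which of the 2 numbers marks the mouse is not given in the labels.

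Reads assigned to genes ranged from 19136923 to 30219185 per library, with a median of 23833430. The steroid-responsive genes Fkbp5, Tsc22d3 and Per1 were all higher with aldosterone than with vehicle (log2 fold changes of 4.26, 2.69 and 1.83), and the proliferation gene Mki67 was lower (-0.78). Summed over 7 fibroblast markers, the level was 25219 to 27252 CPM (gene reads per 1000000) with aldosterone and 27227 to 28881 with vehicle, most of it from Fn1. Of these markers Pdgfra (log2 fold change 0.91) and Vim (0.48) were higher with aldosterone and none was called lower, while 2 were higher and 5 lower with sample number as a block (described with the first comparison). Macrophage (5 of 6 genes in the table), myogenic (4 of 6) and epithelial (4 of 4) markers summed to at most 5.53, 5.78 and 1.05 CPM in those libraries. Whether a gene changed within cells or through the share of a cell type cannot be told apart in bulk RNA.

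A collagen is a trimer of chains in which glycine recurs at each 3rd residue, the Gly-X-Y repeat, so that the chains can wind into a rope-like helix. Fibrillar collagens (types I, II, III, V, XI, XXIV and XXVII) pack into fibers. Type IV collagen builds the sheet of basement membranes, type VI builds beaded filaments around muscle fibers, and FACIT chains sit on fiber surfaces. Type I and type III collagens make up most of the scar matrix of skeletal muscle, and defects of type VI collagen cause congenital muscular dystrophies.

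The fibrillar genes differ from the other classes in the repeat itself, which the choice by symbol did not use. Collagen classes are partly defined by the helix, as the name FACIT shows, so this describes the grouping and is no separate evidence for it. In the longest coding sequence of each gene (GENCODE M1, mouse NCBIM37, found for 43 of the 44 genes), the longest unbroken run of Gly-X-Y triplets was 337 to 344 triplets in 9 of the 11 fibrillar genes. It was 216 in Col24a1 and 217 in Col27a1. Network-forming genes had runs of 39 to 66 triplets, FACIT genes 32 to 113, type VI genes 37 to 87, transmembrane genes 40 to 56 and both multiplexins 30. Col7a1 had 75 and Col28a1 had 28. The ranges of the network-forming, FACIT, type VI and transmembrane genes overlapped. Col12a1, a FACIT gene, held only 8.22% of its 3065 codons in runs of at least 5 triplets, against 73.3% of 1453 codons in Col1a1. The stretches shown next contrast the start of the unbroken run of Col1a1 with the place where the longest run of Col24a1, Col27a1 and Col4a1 ends. Each line has 24 codons of coding sequence, with every glycine codon (GGN) in capitals.
Col1a1, codons 168 to 191: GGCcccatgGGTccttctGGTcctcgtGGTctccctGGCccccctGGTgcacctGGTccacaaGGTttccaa
Col24a1, codons 1204 to 1227: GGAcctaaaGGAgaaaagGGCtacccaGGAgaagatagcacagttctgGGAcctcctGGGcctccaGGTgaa
Col27a1, codons 1312 to 1335: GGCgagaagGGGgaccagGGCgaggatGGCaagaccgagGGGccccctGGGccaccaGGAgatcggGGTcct
Col4a1, codons 151 to 174: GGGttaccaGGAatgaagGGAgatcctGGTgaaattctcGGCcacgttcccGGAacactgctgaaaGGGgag
In Col1a1 a glycine codon stands at each 3rd codon throughout. In Col24a1, Col27a1 and Col4a1 the spacing breaks after the 4th glycine codon shown. It resumes within the stretch in Col24a1 and Col27a1 but not in Col4a1.

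**Figure D1:**
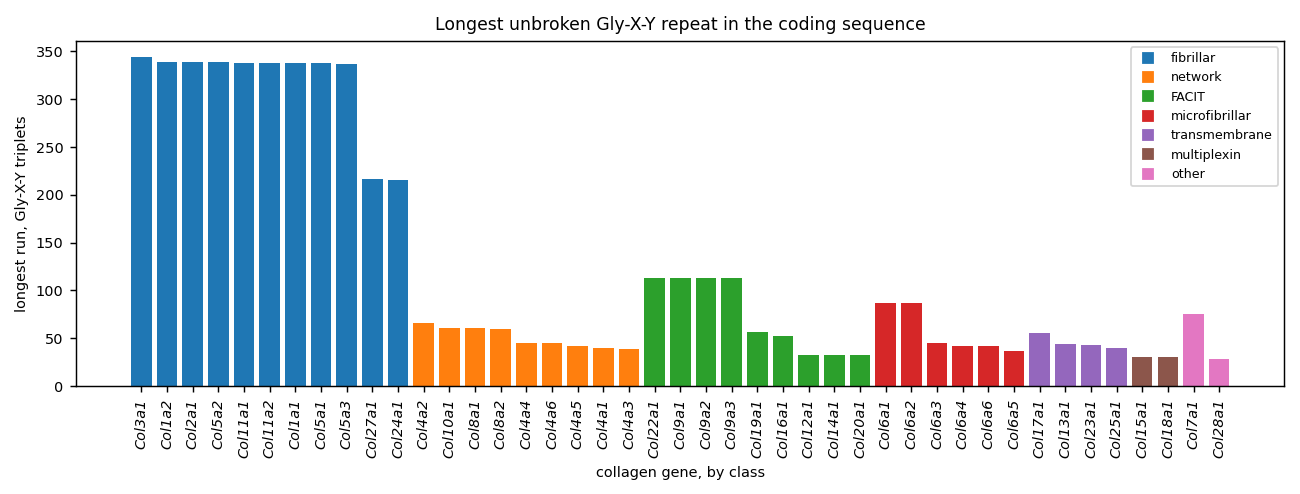
Longest unbroken run of Gly-X-Y triplets (y axis, in triplets) in the coding sequence of 43 collagen genes, colored by class. The 9 longest, all fibrillar, reach 337 to 344 triplets, Col24a1 and Col27a1 stop at 216 and 217, and no gene of the other classes exceeds 113.

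Collagen messages were abundant in these cells. They took 6.91% ± 0.303 of all gene reads with vehicle, 6.55% ± 0.357 with spironolactone and 6.38% ± 0.325 with aldosterone (mean ± SD, n = 4 each), and the ranges overlapped. Within each sample number, both aldosterone plates were below both vehicle plates. Fibrillar genes took 5.44 to 6.01% of reads with vehicle and 4.62 to 5.15% with aldosterone, which did not overlap. FACIT genes took 0.544 to 0.581% with vehicle and 0.688 to 0.792% with aldosterone. The share of the 3 major type VI genes was 0.374 to 0.426% with vehicle and 0.472 to 0.529% with aldosterone. The share of Col4a1 and Col4a2 together was 0.0889 to 0.0955% with vehicle and 0.149 to 0.174% with aldosterone. None of these 4 shares overlapped between the groups, and how often sums over other genes separate was not counted. A share follows its most abundant genes. The median log2 fold change per gene was 0.14 for the fibrillar class and -0.26 for FACIT.

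Levels between genes were compared as CPM per kb of the gene length given in the tables. This length did not always follow the coding sequence. It was 6563 bases for Col1a1 and 12426 for Col1a2, which have 1453 and 1372 codons. Levels, ranks and chain ratios per kb therefore depend on it, whereas the change of a ratio between treatments does not. Without the length, vehicle libraries had 23076.5 to 25473.3 CPM for Col1a1 and 14679.8 to 17140.7 for Col1a2. Col1a1, the alpha 1 chain of type I collagen, was highest at 3688 ± 151 with vehicle (SD, n = 4), and only 2 genes of any kind stood above it. Col1a2, the alpha 2 chain, followed at 1275 ± 104. Col5a1 (531 ± 35.3), Col3a1 (495 ± 21.8) and Col5a2 (432 ± 37.3) came next, and each of these 3 overlapped the next of the 3. Col12a1 and Col6a1 stood at 348 ± 10.7 and 312 ± 33.8. Among genes of middle rank, Col4a2 (69.2 ± 2.77) and Col4a1 (62.7 ± 1.89) did not overlap per kb. In CPM with vehicle they did overlap, at 437.531 to 481.655 for Col4a2 and 451.886 to 484.19 for Col4a1. Col24a1 ranked 33rd of 44 at 0.222 ± 0.0158 with vehicle and 28th at 1.68 ± 0.165 with aldosterone. Means were under 10 normalized counts for 5 genes (Col6a4, Col6a5, Col13a1, Col25a1 and Col26a1), leaving 39 genes.

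**Figure D2:**
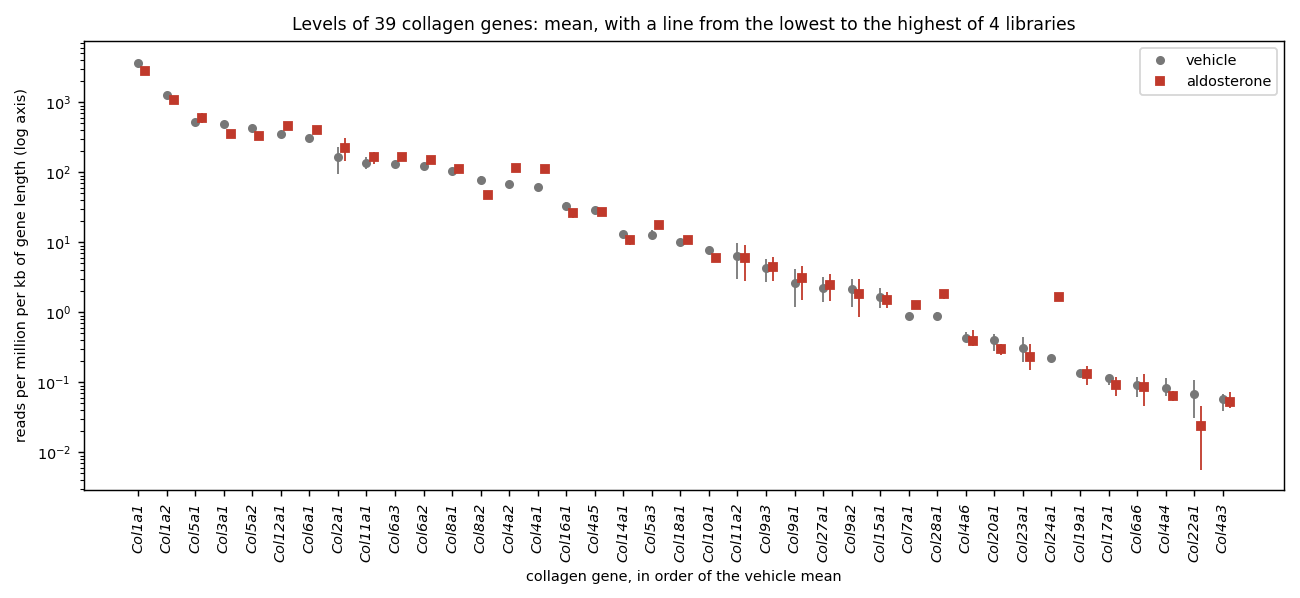
Level of 39 collagen genes in vehicle- and aldosterone-treated fibroblasts, in CPM per kb of gene length on a log axis (point, mean; line, lowest to highest of 4 libraries), in the order of the vehicle mean. Col1a1 is highest in both groups (3688 and 2842), and the largest gap between groups is at Col24a1 (0.222 and 1.68).

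The first comparison asked which collagen genes changed with direct aldosterone treatment. A normalized count is a gene's read count after scaling by its library's size factor. With limma on log2(normalized count + 1) across all genes and p-values adjusted by Benjamini-Hochberg (threshold 0.05), 10 of the 44 collagen genes were higher with aldosterone than with vehicle and 5 were lower. Among all genes tested, 5.68% were higher and 4.74% lower. All 10 higher genes had every aldosterone library above every vehicle library, and all 5 lower genes had the reverse. The test on these same libraries favors such genes, so this adds no separate evidence. Col8a1 (higher) and Col1a1 (lower) also did not overlap, though neither was called. Over all genes, called or not, 7.55% had every aldosterone library above every vehicle library and 6.90% had the reverse. The median log2 fold change over the 44 genes was -0.05, against -0.01 over all genes tested. When the log2 fold change also had to reach 1 in size, as the study required, 2 collagen genes remained, Col24a1 and Col28a1, while 2.06% of all genes passed.

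Libraries with the same sample number deviated together, so the fit was repeated with sample number as a replicate block. The block gave 16 higher and 8 lower collagen genes, with 8.68% and 8.02% of all genes called. Both fits had the same 15 genes in common, and the block added Col2a1, Col5a1, Col8a1, Col9a1, Col11a1 and Col18a1 as higher and Col1a1, Col1a2 and Col14a1 as lower. Within sample number 1 alone, 2 plates against 2, no collagen gene passed, and within sample number 2 alone 3 higher genes and 1 lower gene passed, although all 15 had the same sign in both.

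Among fibrillar genes, aldosterone lowered the abundant type III chain and the alpha 2 chain of type V, and raised 2 genes of low abundance. Col3a1 (mm39, the build of all gene positions from the tables, chromosome 1, 45350698 to 45388866, plus strand), whose product co-assembles with type I collagen in soft tissue, had normalized counts of 86352, 83599, 88109 and 82819 with aldosterone (1_1, 1_2, 2_1 and 2_2, the order used throughout) and 111576, 111113, 117458 and 117793 with vehicle. The groups did not overlap. The log2 fold change was -0.43 ± 0.07 (SE, adjusted p = 0.000442), with -0.39 in sample number 1 and -0.46 in sample number 2. Col5a2 (chromosome 1, 45413481 to 45542442, minus strand), which helps to start type I fibers, had 89001, 83801, 70985 and 67535 with aldosterone and 102334, 108490, 89910 and 89819 with vehicle. The highest aldosterone plate was below the lowest vehicle plate by a small margin, and plates of sample number 2 were lower in both groups. The change was -0.33 ± 0.10 (adjusted p = 0.0368, and 3.56e-07 with the block), and leaving out any of the 8 libraries raised the adjusted p to between 0.0529 and 0.242.

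Type I collagen was the closest case. Col1a1 (chromosome 11, 94827050 to 94843868, plus strand) had 496795, 448291, 472126 and 394901 normalized counts with aldosterone and 583882, 545376, 559530 and 593714 with vehicle. All aldosterone plates were below all vehicle plates, but the log2 difference of -0.34 ± 0.11 missed the threshold (adjusted p = 0.0527). It passed with the block (adjusted p = 4.68e-05). Col1a2 (chromosome 6, 4504814 to 4541544, plus strand) had 328656, 315363, 352786 and 324066 with aldosterone and 352605, 349026, 400298 and 390862 with vehicle. The groups overlapped by a narrow margin, since aldosterone plate 2_1 (352786) stood above vehicle plates 1_1 and 1_2. The log2 difference was -0.18 ± 0.09 (adjusted p = 0.327, and 0.00897 with the block).

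Type V collagen, a minor component that sets fiber diameter, moved apart by chain. Col5a1 (chromosome 2, 27776437 to 27929526, plus strand) had 147853, 130269, 116869 and 101779 with aldosterone and 113064, 114946, 97679 and 103122 with vehicle. The groups overlapped, and the log2 difference of 0.20 ± 0.10 did not pass (adjusted p = 0.295, and 0.0038 with the block). Col5a3 (chromosome 9, 20681346 to 20726363, minus strand), the rarest of the 3 chains, had 3086, 2844, 3085 and 2790 with aldosterone and 1970, 1937, 2033 and 2365 with vehicle. The groups did not overlap, and Col5a3 was higher with aldosterone by 0.51 ± 0.07 (log2, adjusted p = 6.87e-05). Per kb, the ratio of Col5a1 to Col5a2 was 1.69 to 1.86 in aldosterone-treated plates, 1.19 to 1.29 with vehicle and 1.16 to 1.26 with spironolactone.

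Col24a1 showed the largest change of any collagen gene. It lies on chromosome 3 (144998233 to 145257766, plus strand) and encodes type XXIV collagen, a minor fibrillar collagen best known from bone. It had 354, 328, 294 and 271 normalized counts with aldosterone and 43.6, 42.0, 37.8 and 36.5 with vehicle. The lowest aldosterone plate was above 6 times the highest vehicle plate. The mean was 312 ± 36.7 against 40.0 ± 3.36, a fold of 7.79, and the log2 fold change was 2.93 ± 0.14 (adjusted p = 3.26e-10), with 2.96 in sample number 1 and 2.89 in sample number 2. Its structural relative Col27a1, which shares the shortened Gly-X-Y run, had a log2 difference of 0.14 ± 0.27 (adjusted p = 0.823).

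**Figure D3:**
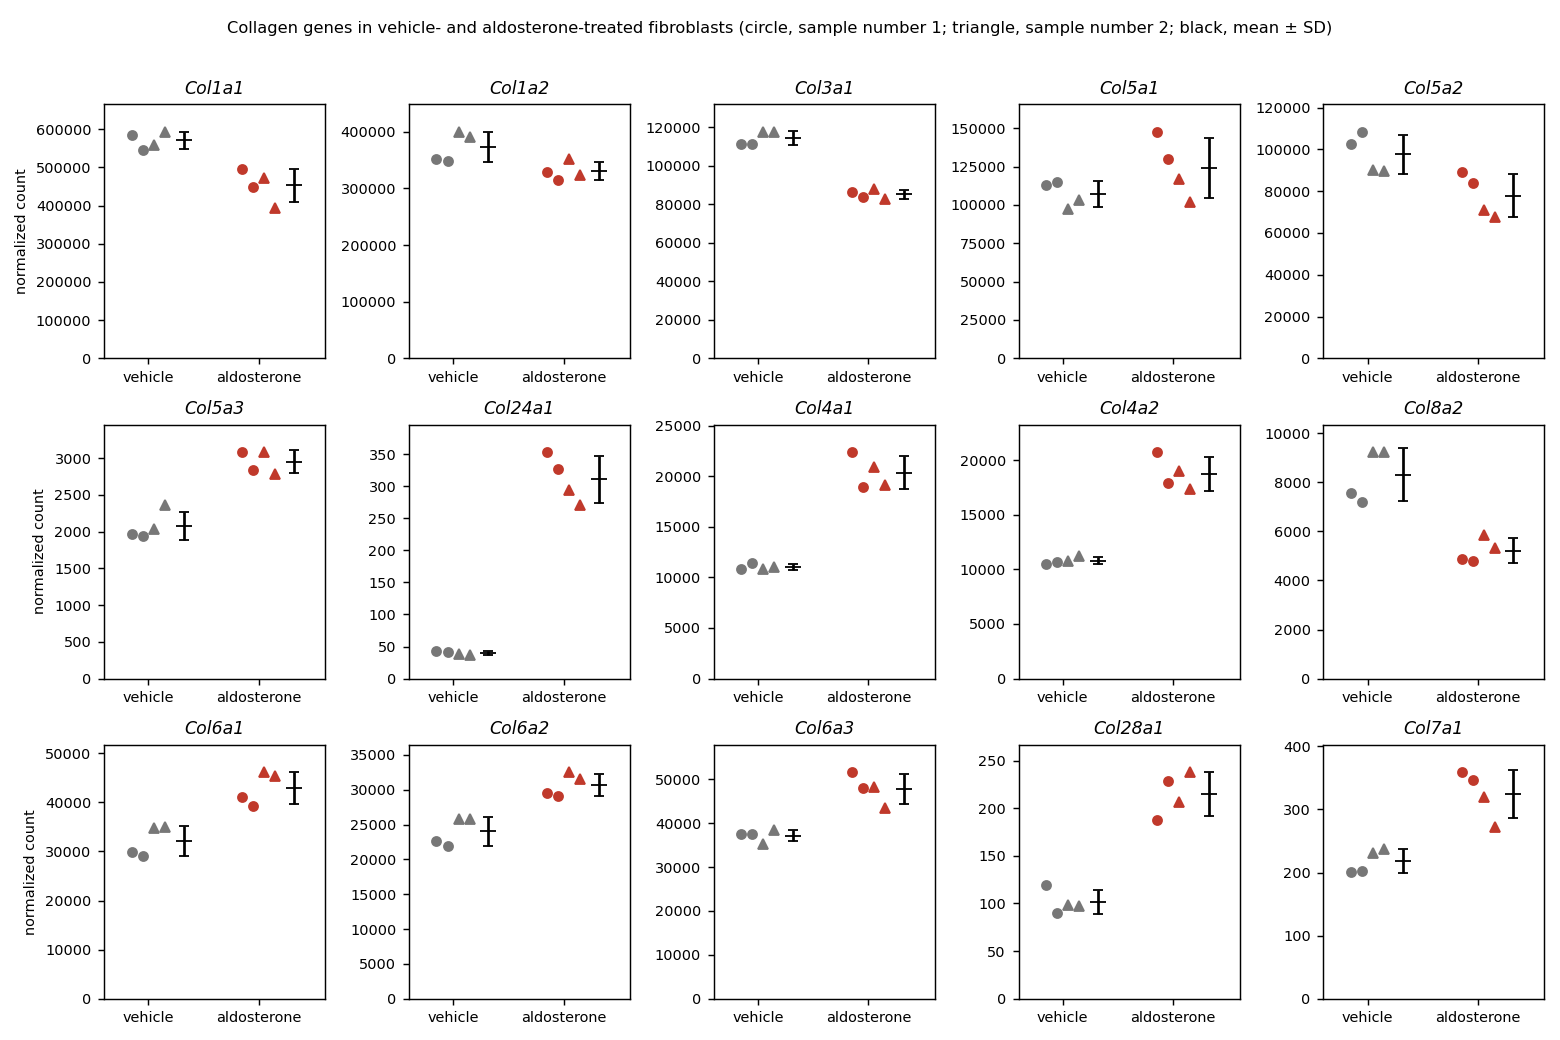
Normalized counts of 15 collagen genes in each vehicle- and aldosterone-treated library (circle, sample number 1; triangle, sample number 2), with the mean ± SD of 4 libraries in black and axes starting at 0. Col24a1, Col4a1, Col4a2 and Col28a1 separate most clearly upward and Col8a2 and Col3a1 downward, whereas Col1a2 and Col5a1 overlap.

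Among network-forming genes, both common type IV chains rose together while Col8a2 and Col10a1 fell. Col4a1 (chromosome 8, 11248423 to 11362826, minus strand) and Col4a2 (chromosome 8, 11362805 to 11499287, plus strand) encode the chains that join 2 to 1 in the trimer of nearly every basement membrane. Col4a1 had 22398, 18941, 20884 and 19143 with aldosterone and 10854, 11443, 10778 and 11037 with vehicle. Col4a2 had 20755, 17866, 18990 and 17317 with aldosterone and 10509, 10700, 10752 and 11226 with vehicle. Neither gene overlapped between groups. The log2 fold changes were 0.88 ± 0.06 for Col4a1 (adjusted p = 4.99e-08) and 0.79 ± 0.06 for Col4a2 (adjusted p = 1.72e-07), and the ratio of Col4a1 to Col4a2 per kb was 0.963 ± 0.0183 with aldosterone and 0.906 ± 0.0334 with vehicle, with overlapping ranges. The tables' positions of these opposite-strand genes overlap by 22 bases.

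The 4 other type IV genes did not pass the test with or without the block. Col4a5, which stood at 4486 ± 613 normalized counts with aldosterone and 4578 ± 399 with vehicle, had a log2 difference of -0.04 ± 0.09. Col4a3, Col4a4 and Col4a6, the chains of specialized membranes in kidney, lung and smooth muscle, had means of at most 80.7. Because endothelial cells also make type IV collagen, their markers were read beside it. The sum over 5 endothelial markers, most of it from Tek, was 28.6 to 30.9 CPM with aldosterone and 20.4 to 22.8 with vehicle. The part of such cells in the result was not tested. Of these markers, Kdr rose (log2 fold change 1.88, adjusted p = 0.00183), and Tek had 0.23 (adjusted p = 0.0694, and 0.0147 with the block). Cdh5, Vwf and Pecam1 were not called, and Pecam1 was near 0, at 2.85 normalized counts with aldosterone and 6.57 with vehicle.

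Col8a2 (chromosome 4, 126180586 to 126208123, plus strand), a chain of the short network collagen of Descemet's membrane, had 4879, 4800, 5872 and 5333 with aldosterone and 7585, 7199, 9248 and 9248 with vehicle. It showed the largest fall among the collagen genes that passed the test, at -0.67 ± 0.09 (adjusted p = 5.11e-05). Its partner Col8a1 had a log2 difference of 0.11 ± 0.05 (adjusted p = 0.246, and 0.0413 with the block), and the ratio of Col8a1 to Col8a2 per kb was 2.01 to 2.58 with aldosterone and 1.20 to 1.55 with vehicle. Col10a1, known from hypertrophic cartilage, fell from 576 ± 42.8 to 455 ± 17.0 (-0.34 ± 0.07, adjusted p = 0.00646). The gene Nt5dc1 overlaps all 7105 bases of Col10a1 on the other strand, and whether the counting used strand is not given in the sources used here.

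All 3 major type VI genes rose by a similar amount. Col6a1 (chromosome 10, 76544626 to 76562002, minus strand) had 41156, 39268, 46162 and 45300 with aldosterone and 29818, 29166, 34705 and 34990 with vehicle. Col6a2 (chromosome 10, 76431596 to 76459464, minus strand) had 29561, 29112, 32519 and 31544 with aldosterone and 22602, 21878, 25730 and 25857 with vehicle. Col6a3 (chromosome 1, 90693645 to 90771693, minus strand) had 51643, 48016, 48217 and 43355 with aldosterone and 37474, 37471, 35340 and 38497 with vehicle. None of the 3 overlapped between groups, and the plates of sample number 2 were the higher ones for Col6a1 and Col6a2 in both groups. The log2 fold changes were 0.42 ± 0.08 for Col6a1, 0.36 ± 0.07 for Col6a2 and 0.36 ± 0.07 for Col6a3 (adjusted p = 0.00164, 0.00243 and 0.00159). Without aldosterone replicate 2_1 the adjusted p of Col6a1 was 0.0502. Per kb, the ratio of Col6a1 to Col6a2 was 2.66 ± 0.0724 with aldosterone and 2.54 ± 0.0295 with vehicle, with overlapping ranges. The size of this ratio rests on gene lengths of 4380 and 8326 bases, for 1025 and 1034 codons. In CPM, Col6a1 had 1234.11 to 1501.25 with vehicle and Col6a2 had 925.729 to 1109.4. Col6a6 was low (18.7 normalized counts with aldosterone and 20.1 with vehicle), and Col6a4 and Col6a5 had at most 8 and 5 reads in any library.

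Among FACIT genes, Col12a1 rose and Col16a1 fell. Col12a1, which coats type I fibers in tendon and muscle fascia, stood at 169372 ± 13281 normalized counts with aldosterone and 125125 ± 4710 with vehicle, a log2 fold change of 0.43 ± 0.08 (adjusted p = 0.00161). Its structural relative Col14a1 had the opposite sign, at -0.26 ± 0.12 (adjusted p = 0.202, and 0.000145 with the block). Col16a1 fell from 5293 ± 500 to 4253 ± 422 (-0.32 ± 0.08, adjusted p = 0.0128), and leaving out any of the 8 libraries raised that p to between 0.0555 and 0.14. Col22a1, found at the muscle-tendon junction, had the largest negative log2 difference (-1.40 ± 0.58), but from 5.40 ± 4.36 against 14.8 ± 8.77 normalized counts and without passing the test (adjusted p = 0.166). Of the 3 tendon markers, Scx and Tnmd were lower with aldosterone (log2 fold changes of -0.76 and -0.25), and their part in these changes was not tested.

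Outside these classes, Col28a1 and Col7a1 rose. Col28a1 (chromosome 6, 7997808 to 8192617, minus strand), a von Willebrand factor A domain collagen known from peripheral nerve, had 187, 228, 206 and 238 normalized counts with aldosterone and 119, 89.8, 98.8 and 97.7 with vehicle. The groups did not overlap, and the change was 1.08 ± 0.13 (adjusted p = 2.09e-05), with 0.99 in sample number 1 and 1.16 in sample number 2. Schwann cell markers (4 genes) summed to 12.7 to 19.1 CPM with aldosterone and 10.2 to 13.9 with vehicle, and their part in the result was not tested. Col7a1 (chromosome 9, 108782654 to 108813943, plus strand), the anchoring fibril collagen of skin, had 359, 346, 319 and 272 with aldosterone and 201, 203, 231 and 237 with vehicle. It rose by 0.57 ± 0.11 (adjusted p = 0.00162) without overlap, with 0.80 in sample number 1 and 0.33 in sample number 2. None of the 4 transmembrane collagens or of the 2 multiplexins passed the test, and with the block only Col18a1 did (0.14 ± 0.05, adjusted p = 0.0466).

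The windows before the start sites of genes that moved together or moved most were read from RefSeq (GRCm38.p6, a different build from the positions given so far). A window was found for 35 of the 44 genes, 38 windows in all, and the 250 bases before the start were searched on both strands for 5 short motifs. These were the CCAAT box, the TATA box (letters TATAAA), the GC box (letters GGGCGG), the AP-1 motif (letters TGACTCA) and the hexamer of a steroid receptor element (letters AGAACA). Col4a1 and Col4a2 start 21 bases apart on opposite strands. The 30 bases that hold both starts are shown from the plus strand (chr8:11312801-11312830), with GGGCGG in capitals. These capitals lie between the starts, inside the transcribed part of both genes rather than before either start.
Col4a1 and Col4a2: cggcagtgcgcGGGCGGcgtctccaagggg
Next come the 250 bases before the start of the genes with the largest rises, Col24a1 (chr3:145292222-145292471, plus strand) and Col28a1 (chr6:8192618-8192867, minus strand), and, for contrast, of Col3a1 (chr1:45311288-45311537, plus strand) and Col1a2 (chr6:4505368-4505617, plus strand). Each is written in the direction of transcription with any of the 5 motifs in capitals.
Col24a1: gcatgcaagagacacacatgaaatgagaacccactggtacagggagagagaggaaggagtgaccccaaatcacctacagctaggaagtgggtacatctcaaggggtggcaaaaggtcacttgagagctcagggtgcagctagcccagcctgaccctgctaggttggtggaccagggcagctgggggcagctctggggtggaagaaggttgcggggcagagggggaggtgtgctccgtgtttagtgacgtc
Col28a1: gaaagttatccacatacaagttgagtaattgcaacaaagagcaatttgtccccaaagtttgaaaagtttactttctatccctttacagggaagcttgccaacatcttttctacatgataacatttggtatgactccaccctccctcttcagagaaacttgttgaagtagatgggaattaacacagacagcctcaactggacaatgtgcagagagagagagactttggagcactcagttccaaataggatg
Col3a1: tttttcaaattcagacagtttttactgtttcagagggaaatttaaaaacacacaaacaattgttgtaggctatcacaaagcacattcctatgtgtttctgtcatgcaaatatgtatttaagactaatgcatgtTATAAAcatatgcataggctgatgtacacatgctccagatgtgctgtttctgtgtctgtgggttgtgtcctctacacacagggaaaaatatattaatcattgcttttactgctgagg
Col1a2: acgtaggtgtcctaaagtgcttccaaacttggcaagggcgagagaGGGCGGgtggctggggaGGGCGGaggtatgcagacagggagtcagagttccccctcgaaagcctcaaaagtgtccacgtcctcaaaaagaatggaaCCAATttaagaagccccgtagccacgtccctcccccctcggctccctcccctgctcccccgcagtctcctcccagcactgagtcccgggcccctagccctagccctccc
The windows of Col24a1 and Col28a1 held none of the 5 motifs. Col3a1 had a TATAAA that begins 117 bases before the start, and Col1a2 had CCAAT at 109 bases and GGGCGG at 205 and 188 bases before it. Over the 38 collagen windows, GGGCGG was found in 57.9%, against 32.7% of all 32851 windows. CCAAT was found in 34.2% against 33.9%, TATAAA in 13.2% against 12.4%, TGACTCA in 2.63% (Col6a1 alone) against 4.46%, and AGAACA in 5.26% (Col9a1 and Col20a1) against 16.1%. A match is a match of letters only and says nothing of binding.

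The second comparison set aldosterone against spironolactone, which shares the aldosterone libraries with the first. Of the 44 genes, 10 were higher with aldosterone and 4 lower, against 4.93% and 3.96% of all genes. The 10 higher genes and the 4 lower genes (Col3a1, Col5a2, Col8a2 and Col10a1) were also called in the same direction against vehicle, where Col16a1 was called in addition. Col24a1 had a log2 fold change of 2.42 ± 0.13 against spironolactone (adjusted p = 1.32e-09) and was the only collagen gene past the study's fold threshold as well, as 1.9% of all genes were. Col28a1 had 0.90 ± 0.13, Col4a1 0.82 ± 0.07, Col4a2 0.77 ± 0.07 and Col7a1 0.63 ± 0.11. Col8a2 had -0.53 ± 0.09 and Col3a1 -0.36 ± 0.07. The call of Col5a2 was lost when any of the 8 libraries was left out, and that of Col8a2 without aldosterone replicate 1_2 or 2_2 or spironolactone replicate 2_2, which left 2 to 3 lower genes. With the block, 17 collagen genes were higher and 6 lower, with 7.58% and 6.8% of all genes called. The block added Col2a1, Col5a1, Col9a1, Col9a3, Col11a1, Col11a2 and Col27a1 as higher and Col14a1 and Col16a1 as lower. Col1a1 had -0.17 ± 0.11 in this comparison (adjusted p = 0.468, and 0.089 with the block).

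**Figure D4:**
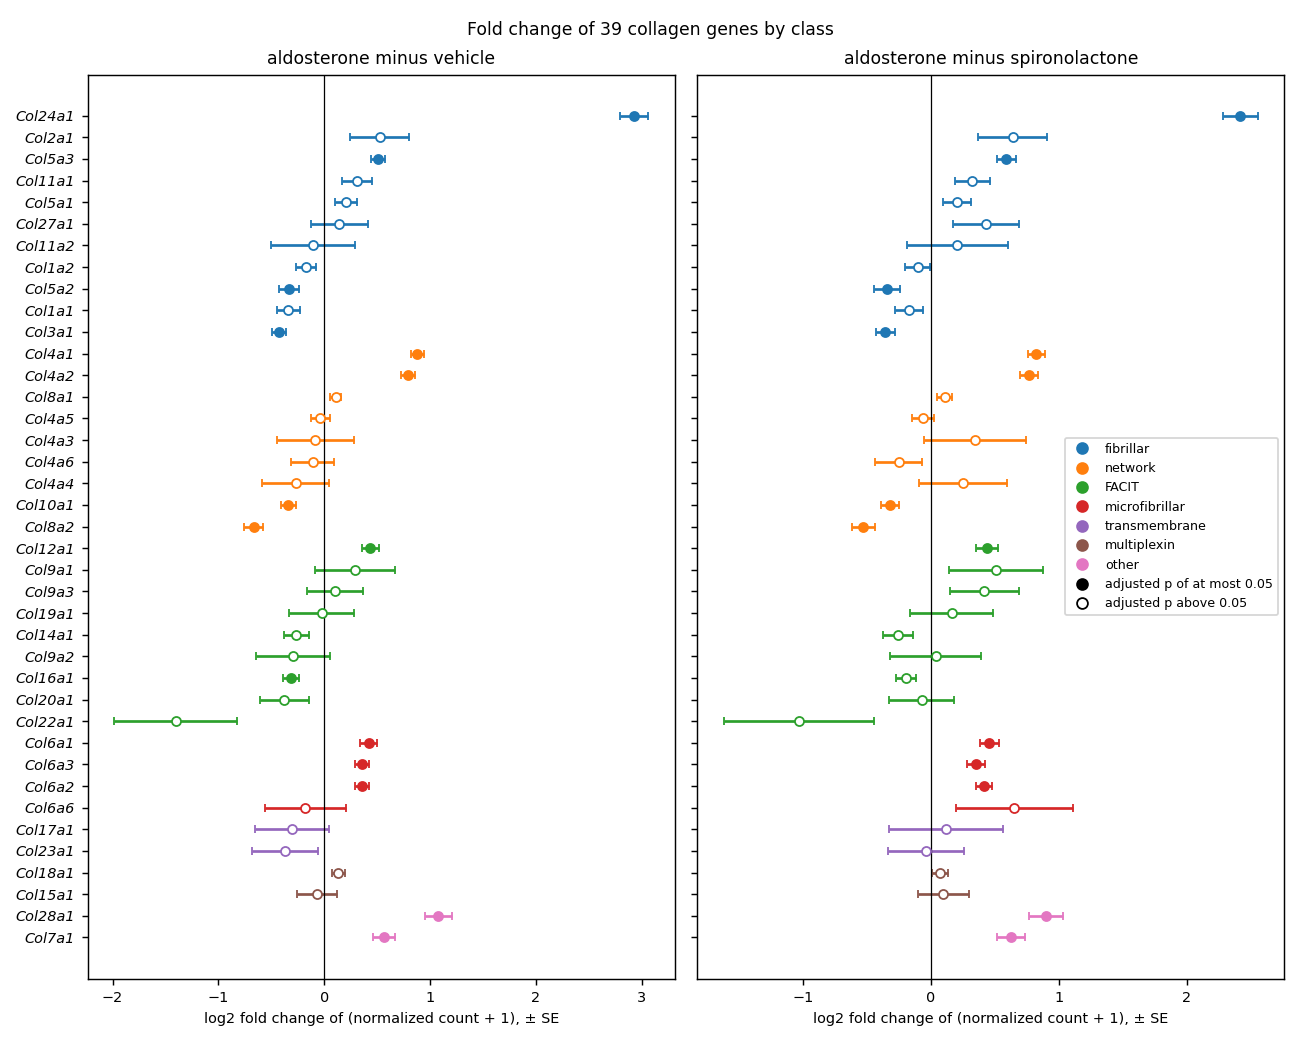
Log2 fold change (± SE) of 39 collagen genes for aldosterone minus vehicle (left) and aldosterone minus spironolactone (right), grouped and colored by class; filled points had an adjusted p of at most 0.05. Col24a1 stands apart at 2.93 and 2.42, the 3 major type VI genes lie between 0.35 and 0.46, and both panels share the aldosterone libraries.

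Spironolactone alone was compared with vehicle as the third question. No collagen gene was called, and neither was any other gene (0% of 27598), with limma. At an unadjusted p under 0.05 there was 1 collagen gene and 1251 genes in all, and edgeR and DESeq2 on recovered reads also called no collagen gene. With the block, Col11a2 (-0.31, adjusted p = 0.0143) and Col27a1 (-0.28, adjusted p = 0.0354) were lower with spironolactone, where 0.351% of all genes were called. Col24a1, with 56.7, 58.1, 67.8 and 49.0 normalized counts in spironolactone-treated plates, had every plate above every vehicle plate, but its log2 difference of 0.51 did not pass (adjusted p = 0.934, and 0.517 with the block). Col1a1, with 519687, 484765, 545912 and 502559, had every plate below every vehicle plate. Its log2 difference of -0.16 did not pass either (adjusted p = 0.934, and 0.194 with the block). The share of all genes without overlap was not counted for this pair.

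The libraries also differed by sample number, and among the collagen genes the largest differences were in genes known from cartilage, though not in all such genes. These genes were named after their values were seen. Col10a1, known from hypertrophic cartilage, was not called by sample number (-0.08 ± 0.07, adjusted p = 0.599). In a fit of the aldosterone and vehicle libraries with both treatment and sample number, 12 collagen genes were higher in sample number 2 and 4 were lower, against 3.98% and 4.79% of all genes. Type II collagen, the main fiber of cartilage (Col2a1), had 35326 and 33144 normalized counts with aldosterone and 22833 and 20976 with vehicle in sample number 1. In sample number 2 it had 69054 and 62708 with aldosterone and 49260 and 50144 with vehicle. Every plate of sample number 2 was above every plate of sample number 1, and the log2 difference between numbers was 1.06 ± 0.05 (adjusted p = 2.5e-16). There were only 2 sample numbers, so the p-values of this fit measure the spread among plates. Col11a2 (1.54 ± 0.06) and Col11a1 (0.49 ± 0.04), chains of the type XI collagen that joins type II, differed in the same direction. So did the 3 chains of type IX collagen, Col9a1 (1.45 ± 0.09), Col9a2 (1.28 ± 0.13) and Col9a3 (1.01 ± 0.07), and so did Col27a1 (1.04 ± 0.06) and the multiplexin Col15a1 (0.61 ± 0.10). The remaining higher genes were Col6a1, Col6a2, Col8a2 and Col16a1, with differences of 0.17 to 0.27. The 4 lower genes were Col14a1 (-0.40 ± 0.05), Col5a2, Col4a5 and Col5a1.

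The spironolactone libraries, which that fit did not use, kept the order for all 16 genes, with both plates of sample number 2 on the same side of both plates of sample number 1. They came from the same 2 mice, so they are not an independent sample. Of all genes called higher or lower by sample number, 80.9% and 79.2% kept it. Together the type II, IX and XI genes took 0.222 to 0.327% of gene reads in sample number 1 and 0.405 to 0.55% in sample number 2, over all 12 libraries. The sum over 5 cartilage markers was 118 to 146 and 164 to 178 CPM in those libraries. Of these markers, Acan (log2 difference 0.70) and Matn1 (2.12, from at most 0.553 CPM) were higher in sample number 2, and Sox9 (0.09), Matn3 (0.03) and Snorc (0.46) were not called. Between aldosterone and vehicle, Sox9 was higher (0.34, adjusted p = 0.00564), Matn3 was lower (-0.98, adjusted p = 0.00896), and Acan had -0.43 (adjusted p = 0.189, and 2.28e-07 with the block). The part of cartilage cells in these results was not tested. Within each sample number, Col2a1 was higher with aldosterone than with vehicle, by 0.64 and 0.40, and with the block it was called (0.52 ± 0.05, adjusted p = 3.94e-10). The same held for Col11a1 (0.35 and 0.27, adjusted p = 4.96e-07) and Col9a1 (0.31 and 0.27, adjusted p = 0.0255). Col9a2, Col9a3, Col11a2 and Col27a1 were not called between aldosterone and vehicle with the block.

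**Figure D5:**
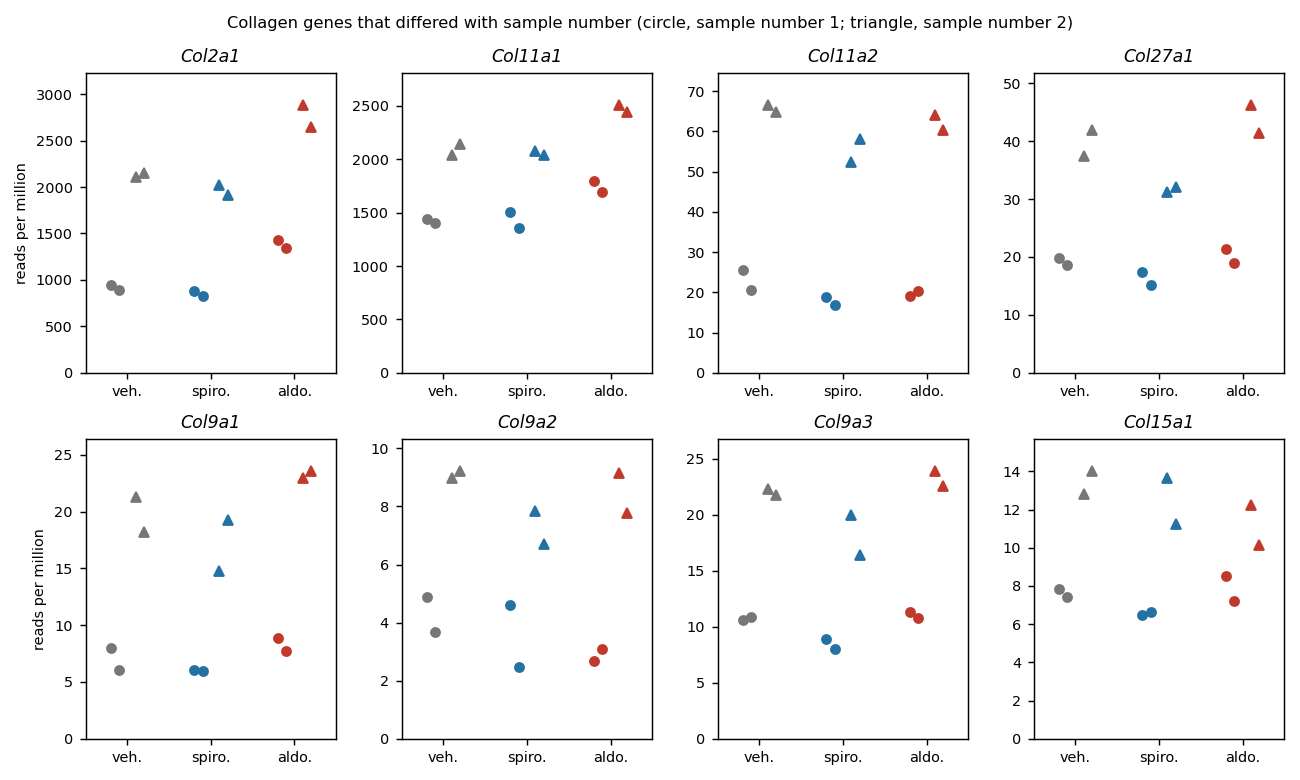
CPM (gene reads per 1000000) of 8 collagen genes in each of the 12 libraries, by treatment (veh., vehicle; spiro., spironolactone; aldo., aldosterone) and sample number (circle, 1; triangle, 2), with axes starting at 0. In every treatment both plates of sample number 2 lie above both plates of sample number 1.

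Whether the response to aldosterone itself differed between sample numbers was tested by an interaction term. No collagen gene was called by limma. At an unadjusted p under 0.05 there were 3, Col2a1, Col7a1 and Col14a1, each with an adjusted p of 0.895, against 1356 of all 27319 genes. Over all genes, 4 were called by the adjusted p.

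The genes that modify, export, link and bind collagen were counted in lists chosen with earlier results known. Of 17 genes for procollagen modification and folding, 2 rose and 4 fell, and the counts of this and the next lists stand beside 5.68% of all genes higher and 4.74% lower. The prolyl hydroxylase subunit P4ha2 rose (0.54, adjusted p = 0.00017), as did the lysyl hydroxylase Plod1 (0.40), while the subunit P4ha1 fell (-0.26, adjusted p = 0.00269). The prolyl 3-hydroxylase P3h1 also fell (-0.26, adjusted p = 0.014). Of 12 genes for export and propeptide cleavage, 2 rose, the enhancer Pcolce2 (0.67, adjusted p = 5.81e-07) and the N-propeptidase Adamts2 (0.48), and 3 fell. Of the 5 lysyl oxidases, which form cross-links, Loxl3 (0.38) and Loxl4 (0.22) rose, and Lox had 0.31 (adjusted p = 0.115, and 2.99e-06 with the block).

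Among 10 fibril-binding proteins, 3 rose and 1 fell. Postn, the matricellular protein periostin, rose most (1.97, adjusted p = 6.76e-10), followed by Tnxb (0.62) and Comp (0.48), and the small proteoglycan gene Podn fell (-0.78). Of 8 collagen receptor genes, 1 rose and 5 fell. Integrin alpha 10, a receptor known from cartilage (Itga10), rose by 2.11 (adjusted p = 3.02e-06), and the other collagen-binding alpha chains fell (log2 fold changes of -0.86 for Itga11, -1.58 for Itga2 and -0.38 for Itga1). The endocytic receptor Mrc2 and the tyrosine kinase receptor Ddr2 also fell (-0.40 and -0.18). Of 6 proteases that degrade collagen, only the cathepsin gene Ctsk rose (0.19, adjusted p = 0.0401). With the block the counts became 3 higher and 1 lower for cross-linking, 5 and 3 for fibril-binding proteins, 2 and 5 for receptors and 1 and 3 for proteases, beside 8.68% of all genes higher and 8.02% lower. The median log2 fold changes of these 6 lists ran from -0.28 for receptors to 0.22 for cross-linking enzymes, against -0.01 over all genes tested.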

How the data were processed

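Poly(A) RNA libraries were sequenced from 12 plates. Per the submitters' processing notes, the authors aligned reads with HISAT2 2.0.5 and counted them per gene with featureCounts 1.5.0-p3 on mm39, the build of the positions given here, while the study's methods name mm9. The deposited tables hold a normalized signal per library (gene counts divided by size factors), a gene length in bases, and the authors' own comparison columns (log2 fold changes and p-values), which were not used. Each of the 3 tables was normalized separately, so tests stayed within a table. Multiples of the smallest step gave whole reads for 100% of values within 0.01. These reads were used for depth, shares, CPM values, edgeR, DESeq2 and the other scalings. The SD of a share is the spread over the libraries of a group.

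Members, classes and gene lists were chosen with earlier results of these data known. The test was limma 3.58.1 (lmFit and eBayes with trend) on log2(normalized count + 1) across all genes of the pair's table, with Benjamini-Hochberg adjustment and a threshold of 0.05, because the values are scaled rather than raw. edgeR 4.0.16 and DESeq2 1.42.0 on recovered reads, other scalings, a pseudocount of 0.5, a mean of at least 10, blocks and left-out libraries were alternatives, and scripts were tested on simulated data. Values per library were given for 10 core chains and for called members whose log2 fold change reached 0.5 in size; list examples were those with the smallest adjusted p. Deviations from group means correlated at 0.135 to 0.291 over 24 library pairs with the same sample number, so that number was used as the block.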

Additional observations from a re-analysis of the deposited data

Results flagged for a closer look

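In 4 of 117 groups of 4 libraries, 1 library lay far from the other 3 by Dixon's criterion, which chance meets in about 1 of 20 groups. Col3a1 had 118724 normalized counts in spironolactone replicate 2_1, while the others had 106512 to 107676. Col12a1 had 136481 in spironolactone replicate 1_1, while the others had 121327 to 122924. Col4a3 had 18.1 in aldosterone replicate 1_1 against 10.6 to 11.05, and Col4a6 had 110 in the same library against 62.0 to 69.4.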

How the results depend on the processing

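All 15 collagen genes called between aldosterone and vehicle had the same sign within sample number 1 and within sample number 2, and neither these nor Col1a1, Col1a2 and Col5a1 reversed under any alternative. Col4a5, which was not called, had 0.02 in sample number 1 and -0.09 in sample number 2. With sample number as a replicate block the collagen genes numbered 16 higher and 8 lower than vehicle, 17 higher than spironolactone, and 2 between spironolactone and vehicle. With a length correction and the block the counts were 17 and 8, 18 and 7, and 2. In sample number 1 only, 2 plates against 2, the counts were 0 and 0 against vehicle and 0 and 0 against spironolactone. In sample number 2 only they were 3 and 1, then 0 and 1. Leaving out 1 library gave 9 to 10 higher and 3 to 4 lower against vehicle, 10 higher and 2 to 3 lower against spironolactone, 0 between spironolactone and vehicle and 0 interactions. It gave 9 to 12 higher and 3 lower by sample number, a fit added after seeing the data. The cause of these shifts was not tested. The other alternatives gave counts within 1.5 times. The calls of Col5a2 and Col16a1 were lost in every fit with 1 library left out. Col5a2 also lost its call with plates correlated within sample number (adjusted p = 0.0553) and with the biological replicate number as a block (0.0632). Col1a1, which the main fit did not call, passed in neither of these settings (0.111 and 0.0925). Nor did it pass with any library left out (0.0631 to 0.172). It passed with edgeR (0.0097), DESeq2 (5.34e-05), a pseudocount of 0.5 (0.0397) and TMM scaling (0.0483), and so did Col5a2. TMM and upper-quartile scaling moved the median of all genes by 0.01 and -0.01 (log2). Depth limited the 5 genes with means under 10.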
